A study of Homo sapiens with 8 samples.

Results

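The ERBB receptors and the EGF-type ligands that bind them were followed through 8 RNA-seq libraries of SW1990, an established human pancreatic adenocarcinoma cell line. The 10 genes were chosen by name as members of this family: the receptors EGFR, ERBB2, ERBB3 and ERBB4 and the ligands AREG, EREG, HBEGF, TGFA, BTC and EPGN, of 38637 genes in the deposited table. The cells fell into 4 groups of 2 libraries each: cells with an empty vector (Vector), cells overexpressing the transcription factor EBF2 (EBF2-OE), cells given vehicle (Vehicle) and cells given GSK-LSD1, a small-molecule inhibitor of the histone demethylase KDM1A (LSD1), at a labelled dose of 2000 µM. This dose stands in the labels alone and exceeds the doses of a series of treated SW1990 cells in the study, so that the dose behind the GSK-LSD1 libraries is uncertain. In the labels, Vector and EBF2-OE have libraries 2 and 3 and the other groups 1 and 2, with no word on what a number stands for, so that p-values measure only the spread between these libraries, which may be technical. All libraries came from the same cell line, and no source used here says whether the overexpressing cells were a single clone.

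EGFR, ERBB2, ERBB3 and ERBB4 are tyrosine kinase receptors of the cell surface. A ligand brings receptors together in pairs, and the paired kinases then drive the MAPK and PI3K pathways. ERBB2 binds no known ligand and acts as a partner, whereas ERBB3 has a weak kinase and signals through its partners. The ligands are made as membrane-bound precursors and are released by metalloproteases, chiefly ADAM17 and ADAM10. In the pancreas, EGFR ligands are known for driving the change of acinar cells into duct-like cells.

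The libraries held from 20453362 to 27054876 counts. The labelled states were checked first: EBF2 had 28 counts in each Vector library, 5818 in EBF2-OE 2 and 90100 in EBF2-OE 3, so that the EBF2-OE libraries carried very different amounts of EBF2 transcript. KDM1A was counted in every library (3932 to 6580), which does not measure the inhibitor's action on the protein. The chi-square per degree of freedom between the libraries of a group was 18.9 in Vector and 23.9 in EBF2-OE against 4.92 in Vehicle and 4.23 in GSK-LSD1, so all were kept as separate libraries. Of 6 epithelial markers, the keratins KRT7, KRT8 and KRT18 were abundant, but KRT19 (0 to 21 counts), EPCAM (4 to 20) and CDH1 (7 to 57) were close to absent. Of 12 markers of other cell types, 4 (CD3E, PRSS1, INS and GCG) were at 0 in every library, and their summed level was 34.7 to 49.4 TPM against 4454 to 7083 TPM for the epithelial list. TPM, which scales counts to gene length and library size, was used wherever genes were set beside each other.

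EGFR was the most abundant member. In the table's hg38 coordinates the gene spans 55019017 to 55211628 of chromosome 7, forward strand. Vector libraries 2 and 3 held 101 and 95.1 TPM and EBF2-OE libraries 2 and 3 held 104.5 and 72.4 TPM, whereas Vehicle libraries 1 and 2 held 60.9 and 65.1 TPM and GSK-LSD1 libraries 1 and 2 held 48.0 and 50.4 TPM. The Vector and EBF2-OE libraries all lay above the Vehicle and GSK-LSD1 libraries. Antisense transcripts overlap the gene (EGFR-AS1 with 7 to 32 counts), beside 5003 to 9791 counts of EGFR. By mean TPM EGFR ranked 2320th of all genes in the table.
ERBB2, the partner receptor (chromosome 17, 39688094 to 39728660, forward strand), was the next receptor. It had 21.8 and 20.1 TPM in the Vector libraries, 21.8 and 20.9 with EBF2-OE, 26.8 and 26.4 with Vehicle and 22.2 and 24.0 with GSK-LSD1. It spanned the narrowest fold range of the receptors, with both Vehicle libraries highest. The end of ERBB2 overlaps MIEN1 on the opposite strand (640 to 1296 counts), and since no strand setting of the counting is stated, reads of the overlap cannot be separated.
ERBB3 (chromosome 12, 56080108 to 56103505, forward strand) had 0.780 and 0.654 TPM in the Vector libraries, 0.893 and 2.12 with EBF2-OE, 2.76 and 3.42 with Vehicle and 3.59 and 3.94 with GSK-LSD1. Vector and GSK-LSD1 thus lay at opposite ends, and EBF2-OE 3 stood apart from EBF2-OE 2. ERBB4 (chromosome 2, 211375717 to 212538802, reverse strand) had only 3 and 9 counts in the Vector libraries, 5 and 14 with EBF2-OE, 5 and 14 with Vehicle, and 21 in each GSK-LSD1 library. EGFR made up 64.2% to 82.1% of the summed receptor TPM in single libraries. The ratio of EGFR to ERBB2 in TPM was 4.69 ± 0.0714 in the Vector libraries, 4.14 ± 0.936 with EBF2-OE, 2.37 ± 0.135 with Vehicle and 2.13 ± 0.0453 with GSK-LSD1 (SD, n = 2 libraries each).

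Among the ligands, AREG (amphiregulin, a ligand of EGFR) and HBEGF (heparin-binding EGF-like growth factor, a ligand of EGFR and ERBB4) accounted for most of the TPM. AREG lies on chromosome 4 from 74445136 to 74455005 on the forward strand. It had 11.1 and 28.5 TPM in the Vector libraries, 9.16 and 18.9 with EBF2-OE, 4.30 and 3.58 with Vehicle and 7.46 and 7.30 with GSK-LSD1. The Vehicle libraries were lowest, and both libraries numbered 3 were highest. HBEGF (chromosome 5, 140332843 to 140346603, reverse strand) had 4.04 and 7.15 TPM in the Vector libraries, 5.01 and 11.1 with EBF2-OE, 6.66 and 4.53 with Vehicle and 5.44 and 6.19 with GSK-LSD1. All 4 groups overlapped in HBEGF.
TGFA, a further EGFR ligand (chromosome 2, 70447284 to 70553826, reverse strand), had 17 and 12 counts in the Vector libraries, 15 and 4 with EBF2-OE, 25 and 26 with Vehicle and 15 and 11 with GSK-LSD1. EREG (epiregulin, a ligand of EGFR and ERBB4; chromosome 4, 74365145 to 74388749, forward strand) had 3 and 4 counts in the Vector libraries, 7 and 3 with EBF2-OE, 3 and 7 with Vehicle and 8 and 20 with GSK-LSD1. EREG had too few counts for the filter of the edgeR test used here and was not called by edgeR without the filter. Both GSK-LSD1 libraries were nevertheless above both Vehicle libraries in counts and in TPM. With GSK-LSD1 DESeq2 gave no adjusted p-value even for ERBB4, which had more counts, so that a missing DESeq2 call is no test result for EREG.
EPGN (epigen, a ligand of EGFR; chromosome 4, 74307585 to 74316789, forward strand) had at most 3 counts in a library. BTC (betacellulin, a ligand of EGFR and ERBB4; chromosome 4, 74744759 to 74794718, reverse strand) had 0 counts in all 8 libraries, and a count of 0 allows a level of up to 0.111 to 0.147 CPM (counts scaled to library size alone), depending on the library. BTC and EPGN were therefore not detectable, or only at the floor, at this depth. These floors cover counting error only.

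**Figure D1:**
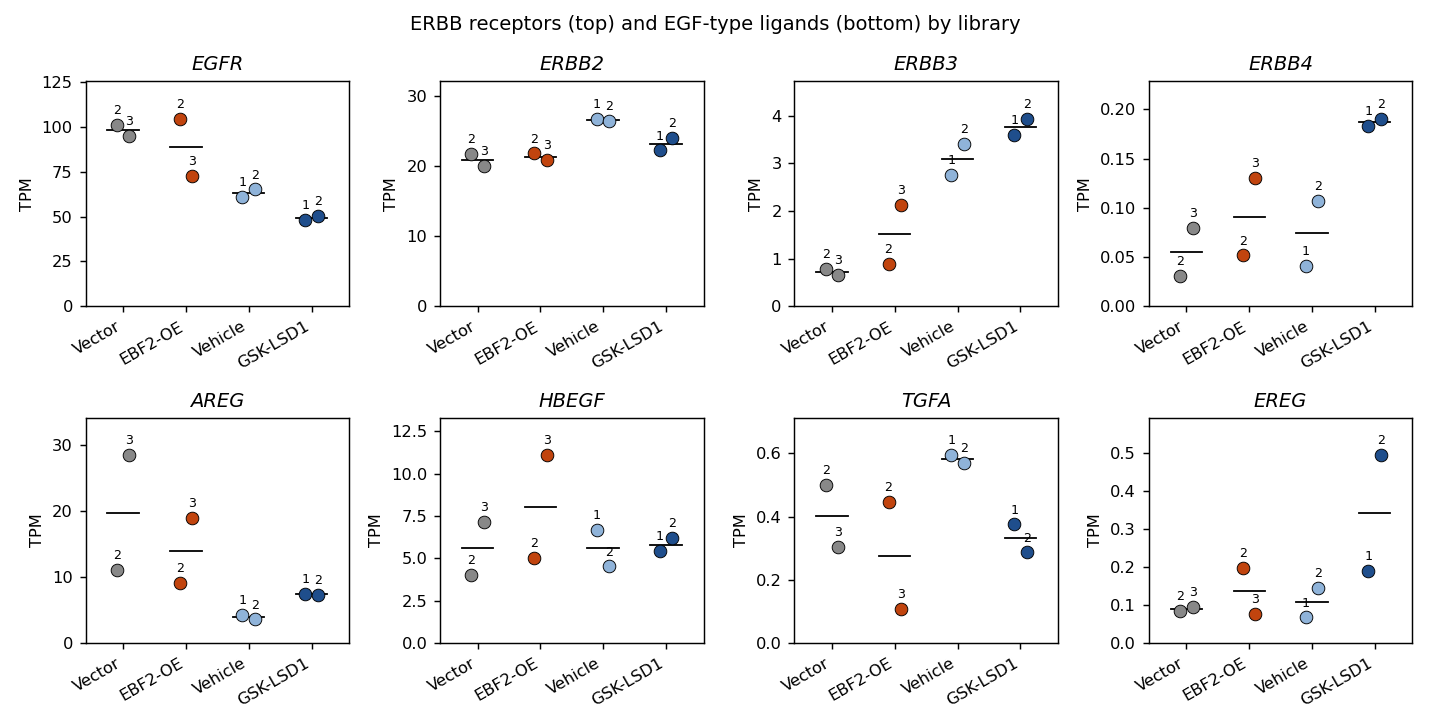
Level in TPM (linear vertical axis from 0) of the 4 receptors and the 4 ligands with more than 3 counts in a library. Each point is a library with its number and each black line a group mean of 2 libraries. EGFR was at 72.4 to 104.5 TPM in the Vector and EBF2-OE libraries and at 48.0 to 65.1 TPM in the others, and AREG was lowest in Vehicle (3.58 and 4.30 TPM).

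The promoters of the members were searched for the letters of known binding sites, since EBF2 is a DNA-binding factor and AREG was the member with the largest called change. RefSeq promoter sequences (GRCh38.p14, from 250 bases before to 50 bases after the start) matched 9 of the 10 members, all but ERBB3. The cAMP response element TGACGTCA was found in AREG alone of the 9 and in 1.98% of 27305 promoters. It begins 65 bases before the start, within chr4:74445041-74445108 on the forward strand, shown here with the element in capitals.
AREG: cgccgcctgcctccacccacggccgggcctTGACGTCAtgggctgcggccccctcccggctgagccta
The core CCCNNGGG of the site that EBF factors bind was found on either strand in 18.6% of promoters and in 4 members, EGFR, EREG, HBEGF and BTC. It is shown in capitals for the members with enough counts to be tested, 177 bases before the start of EGFR (chr7:55018810-55018877, forward strand) and 143 bases before that of HBEGF (chr5:140346709-140346776, reverse strand, written in the direction of the gene).
EGFR: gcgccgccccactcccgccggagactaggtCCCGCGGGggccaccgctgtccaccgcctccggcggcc
HBEGF: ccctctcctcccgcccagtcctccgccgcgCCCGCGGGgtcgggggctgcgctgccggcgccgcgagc
The letters TGANTCA, which include both forms of the AP-1 site, were found in ERBB2 alone of the 9 members and in 7.76% of promoters, and the match in ERBB2 was TGATTCA, which is neither of those forms. None of these letters overlaps another in a member's promoter. A match is a description of the sequence and not a bound site.

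The size and make-up of the ligand pool were compared in TPM. The summed ligand TPM was 15.7 and 36.1 in the Vector libraries, 14.9 and 30.2 with EBF2-OE, 11.6 and 8.88 with Vehicle and 13.5 and 14.3 with GSK-LSD1. AREG made up 74.6% ± 6.01 of it in the Vector libraries, 62.1% ± 0.799 with EBF2-OE, 38.7% ± 2.39 with Vehicle and 53.3% ± 3.01 with GSK-LSD1 (SD, n = 2 libraries each). HBEGF made up 22.8% ± 4.19, 35.2% ± 2.15, 54.2% ± 4.48 and 41.9% ± 2.11 in the same order.
Vehicle was thus the group in which HBEGF exceeded AREG, with an AREG to HBEGF ratio of 0.645 and 0.792 in its libraries. The ratio was 2.74 and 3.99 in Vector, 1.83 and 1.71 in EBF2-OE, and 1.37 and 1.18 in GSK-LSD1, so that the libraries of no group overlapped those of another. No share over other gene pairs was computed. Of single genes tested, 22.9% did not overlap between EBF2-OE and Vector, 60.2% between GSK-LSD1 and Vehicle and 70.9% between Vector and Vehicle. The EBF2-OE libraries, which lay 2.07-fold apart in AREG and 2.22-fold apart in HBEGF by CPM scaled to library size alone, were close in the AREG to HBEGF ratio. With 2 libraries against 2, an exact permutation test of such a ratio could not pass the threshold and none was run.

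**Figure D2:**
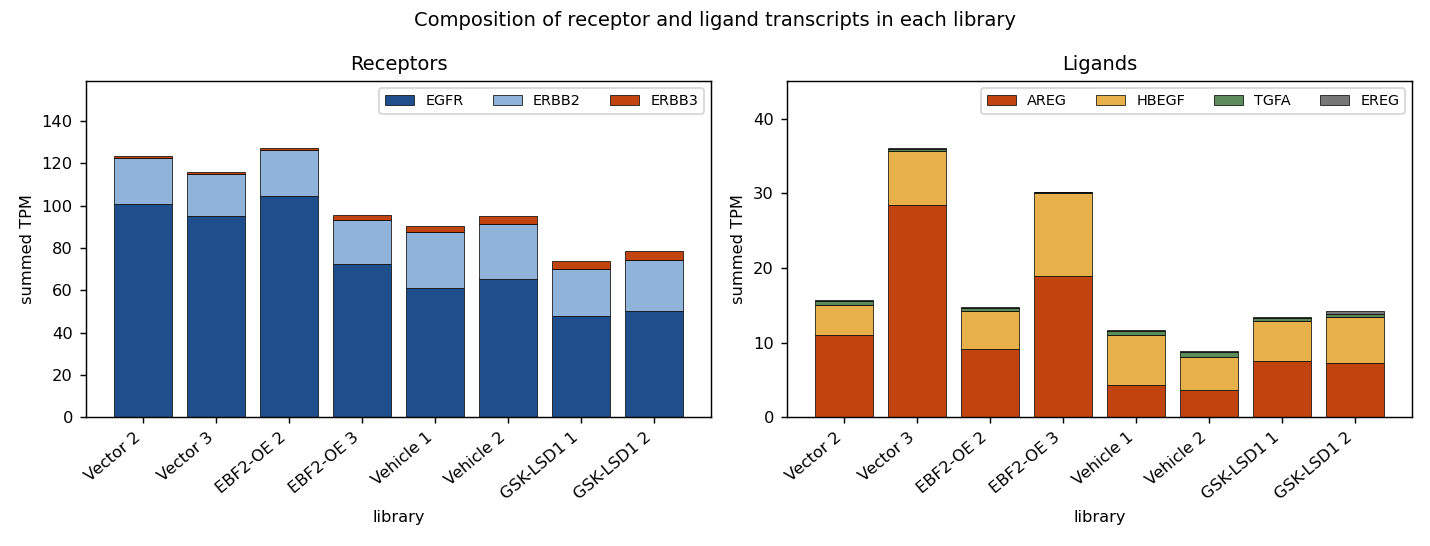
Summed TPM (linear axis from 0) of the receptors EGFR, ERBB2 and ERBB3 and of the ligands AREG, HBEGF, TGFA and EREG in each of the 8 libraries. Bars are stacked by gene, EGFR is the tallest receptor part in every library, and the ligand sum is highest in Vector 3 (36.1 TPM) and EBF2-OE 3 (30.2 TPM).

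EBF2-OE was compared with Vector to ask whether raising EBF2 altered the receptors or ligands. None of the 6 members tested passed: 0 were called by edgeR's quasi-likelihood test, for which a call required a fold change beyond 1.5 in either direction and p under 0.05 after Benjamini-Hochberg adjustment, where 0% of the 15560 genes tested were called. The lowest adjusted p-value of any gene by edgeR was 0.208, so that EBF2 itself was not called either. The absence of a call here therefore says little about a member. Taking p under 0.05 without adjustment, with the fold limit kept, 0 members and 0.951% of all genes passed, and DESeq2 likewise called 0 members. ERBB4, EREG, BTC and EPGN had too few counts to pass edgeR's filter. DESeq2 and edgeR without the filter fitted all members but BTC, and called 0.
ERBB3 had the widest difference, from 1.74 and 1.51 CPM in Vector to 2.06 and 4.95 CPM in EBF2-OE. Both EBF2-OE libraries were higher, but EBF2-OE 3 alone was far from Vector. Its log2 fold change (log2FC, given ± its standard error, SE) was 1.11 ± 0.485 (95% interval -0.07 to 2.29; adjusted p = 0.9998 by edgeR), and 0.34 without EBF2-OE 3. ERBB2 had the narrowest interval, with 50.8 and 48.5 CPM in Vector and 52.5 and 50.8 CPM in EBF2-OE and a log2FC of 0.06 (SE 0.118; interval -0.23 to 0.35). These were the 2 of 6 members whose libraries did not overlap between the groups in CPM, both higher in EBF2-OE, against 22.9% of all genes tested. For ERBB2 this rests on 50.85 CPM in EBF2-OE 3 against 50.81 CPM in Vector 2. In TPM its groups overlapped, with 20.85 in EBF2-OE 3 below 21.77 in Vector 2.
The other members tested overlapped between the groups. Whether EBF2 acts through the CCCNNGGG core in the promoters of EGFR and HBEGF was not tested. The log2FC was -0.12 for EGFR (interval -0.56 to 0.32), -0.47 for AREG (-1.78 to 0.83), 0.55 for HBEGF (-0.59 to 1.69) and -0.52 for TGFA (-2.34 to 1.30). For EGFR and ERBB2 the interval lay within the 1.5-fold limit in both directions. The intervals of ERBB3 and the ligands leave room for changes of more than 2-fold, so that this fit could not settle such changes. With the library number added as a block the log2FC was -0.42 (SE 0.208) for AREG and 0.51 (SE 0.225) for HBEGF. In the same fit it was 1.01 (SE 0.397) for ERBB3 and -0.63 (SE 0.606) for TGFA, and no member was called. Without EBF2-OE 3 the sign turned for EGFR (0.11), HBEGF (-0.15) and TGFA (0.18), and without Vector 3 it turned for AREG (0.40). Without EBF2-OE 2 the log2FC of EGFR was -0.40.
In AREG and HBEGF the libraries numbered 3 lay above those numbered 2 in both groups. The ratios between libraries of a group are of CPM scaled to library size alone. AREG was 2.59-fold higher in Vector 3 than in Vector 2 and 2.07-fold higher in EBF2-OE 3 than in EBF2-OE 2, a distance reached by 1.77% and 4.56% of genes with counts enough for this comparison. HBEGF was 1.78-fold and 2.22-fold higher in the same libraries (7.31% and 3.66% of genes). ERBB3 was 2.38-fold higher in EBF2-OE 3 than in EBF2-OE 2 (2.71% of genes), whereas in Vector its ratio was 0.844. EGFR was 0.694-fold in EBF2-OE 3. What the library numbers stand for and the part of the EBF2 level in these differences were not tested.

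GSK-LSD1 was compared with Vehicle to ask how the KDM1A inhibitor changed the same genes. AREG rose, and it was the 1 member called of 7 tested, where 4.57% of the 16059 genes tested were called (406 higher and 328 lower). Its level was 2.06 and 1.68 CPM in Vehicle 1 and 2 and 3.68 and 3.50 CPM in GSK-LSD1 1 and 2. The groups were clearly apart and the GSK-LSD1 libraries were close to each other. The log2FC was 0.94 ± 0.203 (95% interval 0.49 to 1.39), a 1.92-fold rise, with an adjusted p-value of 0.00942 by edgeR.
This call rests on 51 and 46 counts in the Vehicle libraries and 84 and 79 with GSK-LSD1. It was lost by DESeq2 (log2FC 0.94, adjusted p = 0.0844) and when edgeR fitted all 8 libraries together (0.94, adjusted p = 0.495). It was also lost without GSK-LSD1 1 (0.91, adjusted p = 0.0826) and without GSK-LSD1 2 (0.98, adjusted p = 0.0600). Over all alternatives the log2FC stayed between 0.80 and 1.09 and the adjusted p-value ran from 9.80e-04 to 0.495. In each of the 2 drug-treated libraries AREG stood above both controls.
EGFR was lower with GSK-LSD1, but by less than the fold limit. It had 271 and 283 CPM in Vehicle and 219 and 224 CPM in GSK-LSD1, without overlap. The log2FC was -0.32 ± 0.0498 (interval -0.43 to -0.21), or 0.799-fold, with an adjusted p-value of 0.00154 by edgeR and of 0.407 when all 8 libraries shared the spread. The range over the alternatives was 8.80e-06 to 0.407.
ERBB2 had 66.5 and 64.2 CPM in Vehicle and 56.6 and 59.7 CPM in GSK-LSD1, a log2FC of -0.17 (SE 0.0617; adjusted p = 0.0868 by edgeR). ERBB3 had 6.56 and 7.95 CPM in Vehicle and 8.76 and 9.36 CPM in GSK-LSD1, a log2FC of 0.32 (SE 0.134; adjusted p = 0.129 by edgeR). Neither passed, although the groups did not overlap in either gene.
ERBB4, with 5 and 14 counts in Vehicle and 21 in each GSK-LSD1 library, had 0.202 and 0.513 CPM against 0.919 and 0.932 CPM. Its log2FC was 1.33 ± 0.466 (interval 0.30 to 2.36; adjusted p = 0.0724 by edgeR). The call depended on the Vehicle library used: without Vehicle 2 it passed (2.16, adjusted p = 0.0228) and without Vehicle 1 it did not (0.85, adjusted p = 0.374).
Of the remaining ligands, TGFA had 1.01 and 0.952 CPM in Vehicle and 0.657 and 0.488 CPM in GSK-LSD1, a log2FC of -0.77 (interval -1.59 to 0.04; adjusted p = 0.176 by edgeR). HBEGF overlapped between the groups, with a log2FC of 0.09 (interval -0.34 to 0.52) that was -0.18 without Vehicle 2. In all, 3 members (ERBB3, ERBB4 and AREG) were higher and 3 (EGFR, ERBB2 and TGFA) lower in both GSK-LSD1 libraries than in both Vehicle libraries, and 60.2% of all genes tested were likewise without overlap. The epithelial marker list summed to 5182 to 5198 TPM in GSK-LSD1 against 6996 to 7083 TPM in Vehicle, and the list of other cell types to 42.4 to 43.6 TPM against 39.2 to 40.8 TPM. Within the latter list CDH5, an endothelial marker, had 77 and 80 counts with GSK-LSD1 against 172 and 180 in the Vehicle libraries. PECAM1, the other endothelial marker, did not fall, with 15 and 14 counts against 14 and 14. COL1A1, which made up most of the sum, had 2013 and 1852 counts with GSK-LSD1 against 1743 and 1961. The GSK-LSD1 libraries held fewer counts in all than the Vehicle libraries. The part of these markers in the results was not tested. All libraries are of the SW1990 line, where bulk RNA cannot tell fewer cells with a transcript from less of it per cell.

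**Figure D3:**
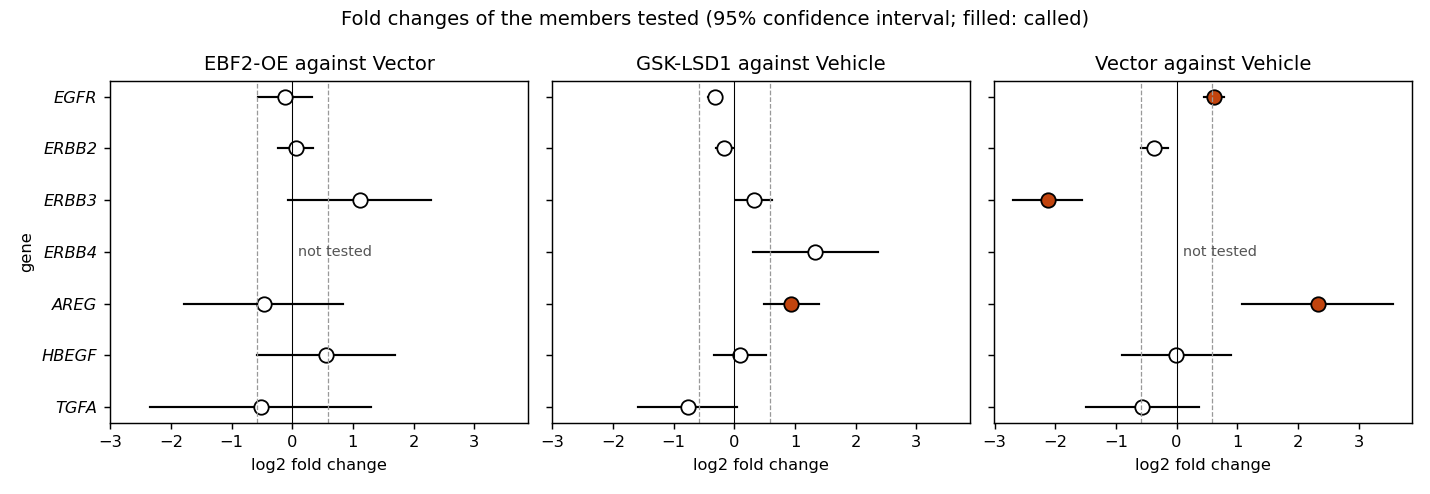
Log2 fold change (horizontal axis) of the 7 members tested in at least 1 of 3 comparisons, with 95% confidence intervals as lines and the 1.5-fold limits dashed. Filled points were called: none in EBF2-OE against Vector, AREG in GSK-LSD1 against Vehicle, and EGFR, ERBB3 and AREG in Vector against Vehicle.

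The effects of EBF2-OE and of GSK-LSD1 were set against each other in 1 fit over all 8 libraries. No member was called for such a difference (0 of 7 tested, and 0% of 16558 genes tested), and 0 members against 4.34% of genes passed with p taken without adjustment and the fold limit kept. DESeq2 also called 0 members. AREG came nearest, with an effect of EBF2-OE that was lower by 1.43 on the log2 scale (difference -1.43, SE 0.688, interval -3.00 to 0.14; adjusted p = 0.696 by edgeR). Without a filter on low counts the same difference passed (-1.43, adjusted p = 0.00651), and the range over all alternatives was 0.00651 to 1.00. The difference was -0.53 without Vector 3, -1.94 without Vector 2 and -2.05 without EBF2-OE 3. ERBB2 was lower in both GSK-LSD1 libraries than in both Vehicle libraries, and its log2FC in EBF2-OE was 0.06 (SE 0.118). Its difference between the effects was 0.22 (interval -0.07 to 0.50, adjusted p = 0.758 by edgeR).

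More members were called between the control groups than in either treated comparison. The same order held over all genes tested, with 16% called against 4.57% with GSK-LSD1 and 0% in EBF2-OE. Vector was compared with Vehicle for the members' levels in the control cells, and the vector, its handling and any batch cannot be told apart in this comparison. AREG and EGFR were higher and ERBB3 was lower in Vector, 3 members called of 6 tested, where 16% of the 16019 genes tested were called (927 higher and 1631 lower). Of the 6 members, 5 did not overlap between these groups (2 higher and 3 lower in Vector), against 70.9% of genes tested.
AREG had 5.06 and 13.5 CPM in Vector 2 and 3 and 2.05 and 1.67 CPM in Vehicle 1 and 2. Each Vector library was above both Vehicle libraries, at a very different distance. The log2FC was 2.32 ± 0.502 (interval 1.07 to 3.57), with an adjusted p-value of 0.0264 by edgeR. It was 1.45 without Vector 3 and 2.87 without Vector 2.
ERBB3 had 1.76 and 1.54 CPM in Vector and 6.52 and 7.89 CPM in Vehicle. Its log2FC was -2.13 ± 0.227, 0.229-fold, with an adjusted p-value of 0.00810 by edgeR. EGFR had 428 and 418 CPM in Vector and 269 and 282 CPM in Vehicle, close pairs in both groups. Its log2FC was 0.62 ± 0.0672, 1.53-fold and so just past the fold limit, with an adjusted p-value of 0.00818.
All 3 calls were lost when a Vehicle library was left out, with fold changes of the same sign. Without Vehicle 1 the adjusted p-values by edgeR were 0.129 for AREG, 0.0721 for ERBB3 and 0.112 for EGFR, and without Vehicle 2 they were 0.129, 0.0627 and 0.0781. ERBB2 was lower by less than the fold limit (log2FC -0.37, SE 0.0872, adjusted p = 0.0337). HBEGF overlapped between the groups (-0.01, interval -0.90 to 0.89), with 0.37 without Vector 2 and 0.31 without Vehicle 1, and TGFA did not pass (-0.57, interval -1.50 to 0.37). The epithelial marker list summed to 4454 to 4827 TPM in Vector against 6996 to 7083 TPM in Vehicle, and the list of other cell types to 39.7 to 42.9 TPM against 39.2 to 40.8 TPM. The latter sum was mostly COL1A1 (30.5 to 45.2 TPM over the libraries), with 1810 and 1935 counts in Vector against 1743 and 1961 in Vehicle. In Vector CDH5 had 15 and 20 counts against 172 and 180 in Vehicle, and COL3A1 had 71 and 80 against 150 and 163. PECAM1 had 13 and 6 counts against 14 and 14. PTPRC (7 and 3 against 4 and 9) and CD14 (15 and 13 against 13 and 21) overlapped. The part of these markers in the results was not tested.

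Ligand release, adaptors and receptor restraint were described through 35 further genes of the pathway, of which 33 were tested in each comparison. In EBF2-OE 0 of 33 were called by edgeR and 0 reached p under 0.05 before adjustment, with a median log2FC of 0.02 against 0.00 over all genes tested. In GSK-LSD1 1 of 33 was called, with a median of 0.01 against -0.01. Over all genes 4.57% were called there, so that the count is near the background. At p under 0.05 before adjustment with the fold limit kept, 2 of 33 passed, beside 576 higher and 510 lower of 16059 genes tested. Between Vector and Vehicle 6 of 33 were called, with a median of 0.00 against 0.00. At p under 0.05 before adjustment with the fold limit kept, 7 of 33 passed, beside 1217 higher and 2267 lower of 16019 genes tested. With 16% of all genes called after adjustment, the 6 of 33 are near the background too and are no result about the pathway. Without Vehicle 1 0 of these genes were called there, and without Vehicle 2 1 was, ERRFI1. Over all genes the calls between the controls fell to 2 higher and 10 lower without Vehicle 1 and to 34 higher and 201 lower without Vehicle 2.
The other EGF-type and neuregulin genes were sparse. EGF itself had at most 1 count in a library and NRG3 had 0, so neither was tested. NRG1, a ligand of ERBB3 and ERBB4, had 26 to 70 counts and NRG4, a ligand of ERBB4, 256 to 360 counts. None of the 3 tested (NRG1, NRG2 and NRG4) was called in any of the 3 comparisons.
Of 6 genes of ligand shedding, TIMP3, an inhibitor of metalloproteases that include ADAM17, fell with GSK-LSD1. It had 3998 and 3990 counts in the Vehicle libraries and 2134 and 2235 with GSK-LSD1, a log2FC of -0.68 (SE 0.0612; adjusted p = 5.86e-05 by edgeR). TIMP3 kept this call under every alternative run, with log2FCs of -0.75 to -0.60 and adjusted p-values of 0.0423 at most. It was the single gene of these lists called there, and 7 more passed the p-value threshold under the fold limit (3 higher and 4 lower). ADAM17 and ADAM10, the sheddases, were not called, with log2FCs of 0.19 and 0.03. Between Vector and Vehicle 3 of the 6 were lower in Vector: RHBDF2 (-0.95), RHBDF1 (-0.75) and TIMP3 (-0.68), of which TIMP3 was also not called without Vector 2 (-0.56). RHBDF1 and RHBDF2 encode the iRhoms, which carry ADAM17 to the cell surface.
None of the 12 adaptor genes was called in any of these comparisons, although PTPN11, the phosphatase SHP2, came close between Vector and Vehicle (log2FC 0.56, SE 0.0864, adjusted p = 0.0135 by edgeR, under the fold limit). Of the 12 genes of receptor restraint and turnover, ERRFI1 (MIG6, an inhibitor of the EGFR kinase) was 2.84-fold higher in Vector than in Vehicle, with 1625 and 1800 counts in Vector and 701 and 718 in Vehicle (log2FC 1.51, SE 0.0925, adjusted p = 0.00577 by edgeR). LRIG1, which promotes the loss of ERBB receptors from the cell surface, was higher (0.95) and its relative LRIG3 lower (-0.65). None of the 12 was called in EBF2-OE or GSK-LSD1.

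EPGN, EREG, AREG and BTC lie within 487 kb of chromosome 4, so that their genomic neighbours were examined. Of 15 other genes within 500 kb of AREG, 10 had at most 3 counts in every library and 2 were tested (CXCL2 and MTHFD2L). Neither was called in a comparison. MTHFD2L had a log2FC of 0.48 with GSK-LSD1 (SE 0.133; adjusted p = 0.0310 by edgeR), under the fold limit. Within 250 kb of ERBB2, 20 other genes were listed, of which 0 were called in EBF2-OE or GSK-LSD1. Between Vector and Vehicle CDK12 was higher (0.68) and GSDMB lower (-1.58) in Vector, out of 9 tested. Over all genes 16% were called there, so that with so few genes this is no result about the locus. Neither CDK12 nor GSDMB kept its call without Vehicle 1 (log2FC 0.66 and -1.55) or without Vehicle 2 (0.69 and -1.61).
By the distance between centred log2 CPM profiles over the 8 libraries, among 14319 genes with at least 10 counts in every library, the genes most like each called member were listed. Those nearest to EGFR were PDLIM5, DDI2 and BCS1L, with a root mean square difference of 0.0838 to 0.0982 log2 units against a median of 0.429 over all genes. Those nearest to AREG were GALNT13, SLC7A11 and SNAI2 (0.273 to 0.293 against 0.929), and those nearest to ERBB3 were INPP5J, SELENOP and ESPN (0.228 to 0.260 against 1.02). These genes were picked for the smallest distance, so that lying below the median follows from the choice. Whether they share regulation with the members was not tested.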

How the data were processed

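RNA-seq of SW1990 cells was analysed for 8 libraries in 4 groups of 2, grouped by the treatment label. The authors selected poly(A) RNA, aligned paired-end reads with default HISAT2 to hg38 and counted reads per gene with HTSeq. The deposited table holds raw counts for 38637 genes and the TPM that the authors derived from counts and gene length. No strand setting is given in the sources used here. Tests used the deposited counts, and TPM served only for comparing genes.

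EBF2-OE was compared with Vector, GSK-LSD1 with Vehicle and Vector with Vehicle, each on its own 4 libraries. The difference between the first 2 effects was fitted on all 8 libraries. The test was edgeR 4.0.16 (R 4.3.3), quasi-likelihood, TMM, filterByExpr with a minimum count of 10. Two-sided p-values were adjusted by Benjamini-Hochberg over all genes tested. Calls required a fold change beyond 1.5 and an adjusted p under 0.05. Standard errors (SE) were taken as the log2 fold change (log2FC) over the root of F. For CPM, TMM factors came from the compared libraries only. Ratios between the libraries of a group used CPM scaled to library size alone. Of these steps, only the edgeR comparisons between groups were tried on simulated data, with changes put into genes of moderate or high counts. The fit of the difference was not tried in this way.

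All 10 members are named. From each pathway list up to 4 called genes with the largest change are named, with neighbours of AREG and ERBB2 and the 3 genes most like each called member. NRG1, NRG2, NRG4, EGF, NRG3, ADAM10, ADAM17, PTPN11 and the genes of the closing section were named after their values were seen. Members and lists were chosen with earlier results of these data known. Alternatives were DESeq2 1.42.0, its size factors, all 8 libraries in 1 fit, no filter on low counts, no fold limit, 10 or more counts required throughout, p-values without adjustment, replicate number as a block and leaving out each library. Figures used matplotlib 3.10.9.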

Additional observations from a re-analysis of the deposited data

How the results depend on the processing

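Of 323 alternative values of single members, 296 kept their direction and their side of the threshold, 10 lost and 5 gained a call, and 12 turned their sign, each of these 12 on leaving out 1 library. Of 100 alternative values of the other genes named with a call, 83 kept it and 17 lost it, all 17 on leaving out 1 library between Vector and Vehicle. Both tallies include the alternatives of unadjusted p-values and of no fold limit, which reuse the main fit. Under these no sign could turn and no call could be lost. CDK12 lost its call also without Vector 3 (0.52). The number of members called with GSK-LSD1 was 0 by DESeq2, 0 with all 8 libraries in 1 fit, 2 at unadjusted p-values (AREG and ERBB4), 2 without the fold limit (AREG and EGFR), and 0 to 2 on leaving out a library. Between Vector and Vehicle it was 0 to 3 on leaving out a library. For the difference between the effects it was 1 (AREG) without the low-count filter. In EBF2-OE against Vector, where the main test called 0 genes of any kind, 0 members were called under every alternative run. Leaving out a library leaves 1 in its group, which is then assumed to vary like the other group.

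On leaving out each library in turn, the log2FC in EBF2-OE against Vector ran from -0.40 to 0.11 for EGFR, from -1.10 to 0.40 for AREG, from -0.15 to 1.05 for HBEGF and from -1.84 to 0.18 for TGFA. HBEGF ran from -0.18 to 0.41 with GSK-LSD1 and from -0.51 to 0.37 between Vector and Vehicle. For the difference between the effects it ran from -2.05 to -0.53 for AREG, from 0.03 to 1.27 for ERBB3, from -0.10 to 0.44 for EGFR, from -1.45 to 0.26 for ERBB4, from -0.24 to 0.97 for HBEGF and from -1.08 to 0.96 for TGFA. The cause was not tested.

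With the replicate number as a block, 0 members were called in EBF2-OE, 1 (AREG) with GSK-LSD1 and 0 for the difference between the effects. Over all genes the block gave 4 higher and 1 lower in EBF2-OE, 420 and 343 with GSK-LSD1, and 14 and 20 for the difference. The deviations of same-numbered libraries from their group means correlated at 0.35 across genes for EBF2-OE and Vector and at -0.014 for GSK-LSD1 and Vehicle, and with 2 numbers each the libraries share only a number. No paired analysis was possible for Vector against Vehicle because these groups share 1 number. Over all genes, DESeq2 called 6 higher and 1 lower in EBF2-OE, the fit without a low-count filter 64 and 10, and the fit of all 8 libraries 2 and 0. With GSK-LSD1 DESeq2 called 284 higher and 186 lower and the fit of all 8 libraries 85 and 15. For the difference between the effects DESeq2 called 38 higher and 56 lower. Depth limited ERBB4, EREG, TGFA, BTC and EPGN, which had at most 26 counts in a library.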

Other observations

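Among the neighbours of AREG, CXCL2, a neutrophil-attracting chemokine, had 8 and 45 counts in the Vector libraries 2 and 3, 6 and 48 with EBF2-OE in the same order, 13 and 8 with Vehicle and 12 and 15 with GSK-LSD1. As for AREG and HBEGF, both libraries numbered 3 were above the libraries numbered 2 of their own group. CXCL2 was not called in any comparison, with a log2FC of 0.10 (SE 1.01) in EBF2-OE and of 1.52 (SE 0.803) in Vector against Vehicle.

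GRB7, an adaptor of ERBB receptors encoded beside ERBB2, ran the other way, with 699 and 239 counts in Vector 2 and 3 and 581 and 311 in EBF2-OE 2 and 3. It had 1238 and 1553 counts with Vehicle and 910 and 990 with GSK-LSD1. Its log2FC was -1.29 in Vector against Vehicle (SE 0.500; adjusted p = 0.107 by edgeR) and -0.35 with GSK-LSD1 (SE 0.0800; adjusted p = 0.0119), which is under the fold limit. ERBB2 itself stayed between 20.1 and 26.8 TPM in the same libraries. What sets the libraries numbered 3 apart was not tested.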
